A study of Homo sapiens with 18 samples.

Results

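C/D box small nucleolar RNAs were examined in 2 human acute myeloid leukaemia cell lines. They were taken as every row with the gene biotype snoRNA and a symbol that starts with SNORD. In HL-60, 214 of 17110 listed genes met this rule, and in MOLM-13, 214 of 17475. The lines shared 207 of these genes, and each listed 7 that the other did not, so 221 genes were examined in all. HL-60 is a promyelocytic line and MOLM-13 a monocytic line that carries a KMT2A fusion. The 6 groups were HL-60 and MOLM-13 cells exposed for 48 h to dimethyl sulfoxide (DMSO, the solvent), to decitabine (DAC) or to NTX-301, each with 3 replicates, 18 samples in all. Decitabine, a cytidine analogue, is built into DNA and traps DNA methyltransferases. NTX-301 belongs to this class of nucleoside drugs. The labels give 30 nM beside HL-60 and 15 nM beside MOLM-13, in wording that does not settle whether the dose of NTX-301 is meant as well. Each line stands for 1 cell line in culture, and the labels do not say whether replicates came from separate cultures beyond separate wells, so p-values measure the spread between these samples.

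As background, C/D box RNAs are short nucleolar RNAs with a C box near the 5′ end and a D box near the 3′ end. SNU13 (15.5K), NOP56, NOP58 and the methyltransferase fibrillarin (FBL) assemble on these boxes, and the bases upstream of the D box pair with ribosomal RNA and place a 2′-O-methyl group. A few members do not mainly guide methylation. U3 (SNORD3), U8 (SNORD118), U13 (SNORD13), U14 (SNORD14) and U22 (SNORD22) take part in cleavage and folding of the ribosomal RNA precursor. Most human members lie in introns of host genes and are trimmed from the intron after splicing, whereas U3, U8 and U13 have promoters of their own. The SNORD115 and SNORD116 repeats are imprinted and expressed from the paternal copy of the Prader-Willi region, and SNORD113 and SNORD114 lie in the imprinted DLK1-MEG3 region.

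Of the 221 genes, 167 had a transcript sequence in GENCODE release 29 (GRCh38). The letters TGATGA, the usual C box read on the transcribed strand, occurred in 125 of them (74.9%), and CTGA, the D box, in 164 (98.2%). In 114 the TGATGA began within the first 20 bases. The sequences below are those on which the results turn: U3, which rose in HL-60, SNORD17, which rose in both lines, and members of the SNHG1, HSPA8, RACK1 and SNHG29 genes with falls in MOLM-13, of which SNORD26 rose in HL-60 with DAC and SNORD96A also fell there. Capitals mark the first TGATGA and the last CTGA. In U3 the TGATGA lies far downstream, at base 158 of 217, and SNORD26 holds no TGATGA.
SNORD3A (U3): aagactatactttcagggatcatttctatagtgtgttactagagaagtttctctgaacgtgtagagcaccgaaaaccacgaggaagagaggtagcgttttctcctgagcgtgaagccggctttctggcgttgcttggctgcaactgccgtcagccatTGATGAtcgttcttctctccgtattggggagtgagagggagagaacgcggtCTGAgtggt
SNORD17 (in SNX5): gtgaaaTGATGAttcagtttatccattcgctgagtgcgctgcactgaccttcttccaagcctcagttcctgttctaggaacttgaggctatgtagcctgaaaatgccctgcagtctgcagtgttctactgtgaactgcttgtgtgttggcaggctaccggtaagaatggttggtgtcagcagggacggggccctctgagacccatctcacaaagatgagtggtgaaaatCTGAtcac
SNORD26 (in SNHG1): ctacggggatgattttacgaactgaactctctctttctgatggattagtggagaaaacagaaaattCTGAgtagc
SNORD30 (in SNHG1): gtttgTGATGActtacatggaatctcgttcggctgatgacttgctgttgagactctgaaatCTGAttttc
SNORD14C (U14, in HSPA8): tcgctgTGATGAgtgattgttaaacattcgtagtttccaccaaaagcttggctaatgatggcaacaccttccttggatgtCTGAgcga
SNORD96A (in RACK1): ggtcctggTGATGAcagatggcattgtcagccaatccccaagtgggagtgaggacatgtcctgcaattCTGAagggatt
SNORD65 (in SNHG29): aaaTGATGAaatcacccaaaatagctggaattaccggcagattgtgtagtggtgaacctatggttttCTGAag

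Values are the deposited log2 normalized expression values, which carry no read depth, so precision rests on the replicates. Whether low values were shrunken is not given in the sources used here. In HL-60, 64 rows shared 1 set of 9 values near 0, the lowest in the table, and 12 members were among them. In MOLM-13 this held for 61 rows and 11 members. Such members are called at the floor below. The filter on low values (a linear value of 1 or more in 3 samples or more) kept 202 of 214 members in HL-60 and all 214 in MOLM-13. RNA was isolated on silica columns that retain long RNA, and most members are short, with a median length of 83 nt, 182 of 221 under 100 nt and only 9 of 180 nt or more. How recovery of short RNA or host pre-mRNA bears on the levels of short members was not tested. Myeloid markers were present (12 of 14 listed in HL-60 and 14 of 14 in MOLM-13, with MPO at 18.6 and PRTN3 at 16.9 the highest). Of 16 markers of other cell types, 3 were listed in HL-60 and 7 in MOLM-13, with the endothelial and myeloid gene PECAM1 highest at 8.59 and 13.1.

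The median level of members, not scaled to length, was 5.58 in HL-60 and 5.41 in MOLM-13 on the log2 scale, and 88 members in each line were under 5. U3 stood above the rest per length. Scaled to 100 nt of length, the mean log2 level of SNORD3A was 16.12 in HL-60, followed by SNORD3B-2 at 12.81, SNORD3B-1 at 12.49, SNORD3D at 12.15 and SNORD3C at 11.34. SNORD17 came next at 10.41, and SNORD76, a guide RNA in GAS5, at 10.30. In MOLM-13 SNORD3A was also the highest per length at 12.22, but the next was SNORD76 at 9.14, then SNORD17 at 9.10. The 5 U3 genes made up between 70.0% and 81.6% of the summed linear per-length values of all members in the HL-60 samples, and between 21.9% and 27.8% in the MOLM-13 samples. The tables of the lines were normalized separately, so this gap was not tested. At the other end, SNORD118 (U8) had a mean level of 0.92 in HL-60 and was at the floor in MOLM-13. SNORD64, SNORD107 and SNORD108 of the Prader-Willi region were at the floor in both lines. Of the members at the floor, 10 in HL-60 and 9 in MOLM-13 lie within listed hosts. Those hosts had mean levels from 8.28 to 16.94 in HL-60 and from 10.55 (TMEM107) to 16.74 in MOLM-13. How reads inside a larger gene were assigned is not given in the sources used here. Low values, that of U8 included, are therefore not shown to mean absence of the RNA.

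The U3 genes held the largest called rises in HL-60. U3 is needed for the early cleavages that release 18S ribosomal RNA, and its genes are transcribed independently of any host. For SNORD3A, the HL-60 values were 17.10, 17.13 and 16.59 with DMSO, 17.49, 17.56 and 17.10 with DAC, and 17.52, 17.35 and 17.28 with NTX-301. The lowest DAC sample lay at the level of the DMSO samples, whereas every NTX-301 sample lay above them. For SNORD3C, the values were 11.97, 12.21 and 11.84 with DMSO, 12.78, 12.93 and 12.52 with DAC, and 12.77, 12.69 and 12.39 with NTX-301. All 6 treated samples lay above all 3 DMSO samples. In the limma fit, DAC raised all 5 U3 genes in HL-60, by 0.45 (SNORD3A, SE 0.129, adjusted p = 0.0221), 0.52 (SNORD3B-1, SE 0.106, 0.0029), 0.59 (SNORD3B-2, SE 0.115, 0.00211), 0.74 (SNORD3C, SE 0.111, 0.000286) and 0.70 (SNORD3D, SE 0.208, 0.0248) on the log2 scale. NTX-301 raised the same 5 genes by 0.45 (SNORD3A, adjusted p = 0.0139), 0.46 (SNORD3B-1, 0.00325), 0.44 (SNORD3B-2, 0.00736), 0.61 (SNORD3C, 0.000521) and 0.77 (SNORD3D, 0.00914). In MOLM-13 none of the 5 was called with either drug, and their changes lay between -0.02 and 0.04 (DAC) and between -0.01 and 0.11 (NTX-301). The MOLM-13 values of SNORD3A were 13.41, 13.15 and 13.34 with DMSO, 13.61, 13.21 and 13.21 with DAC, and 13.35, 13.29 and 13.48 with NTX-301, with overlapping groups.

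**Figure D1:**
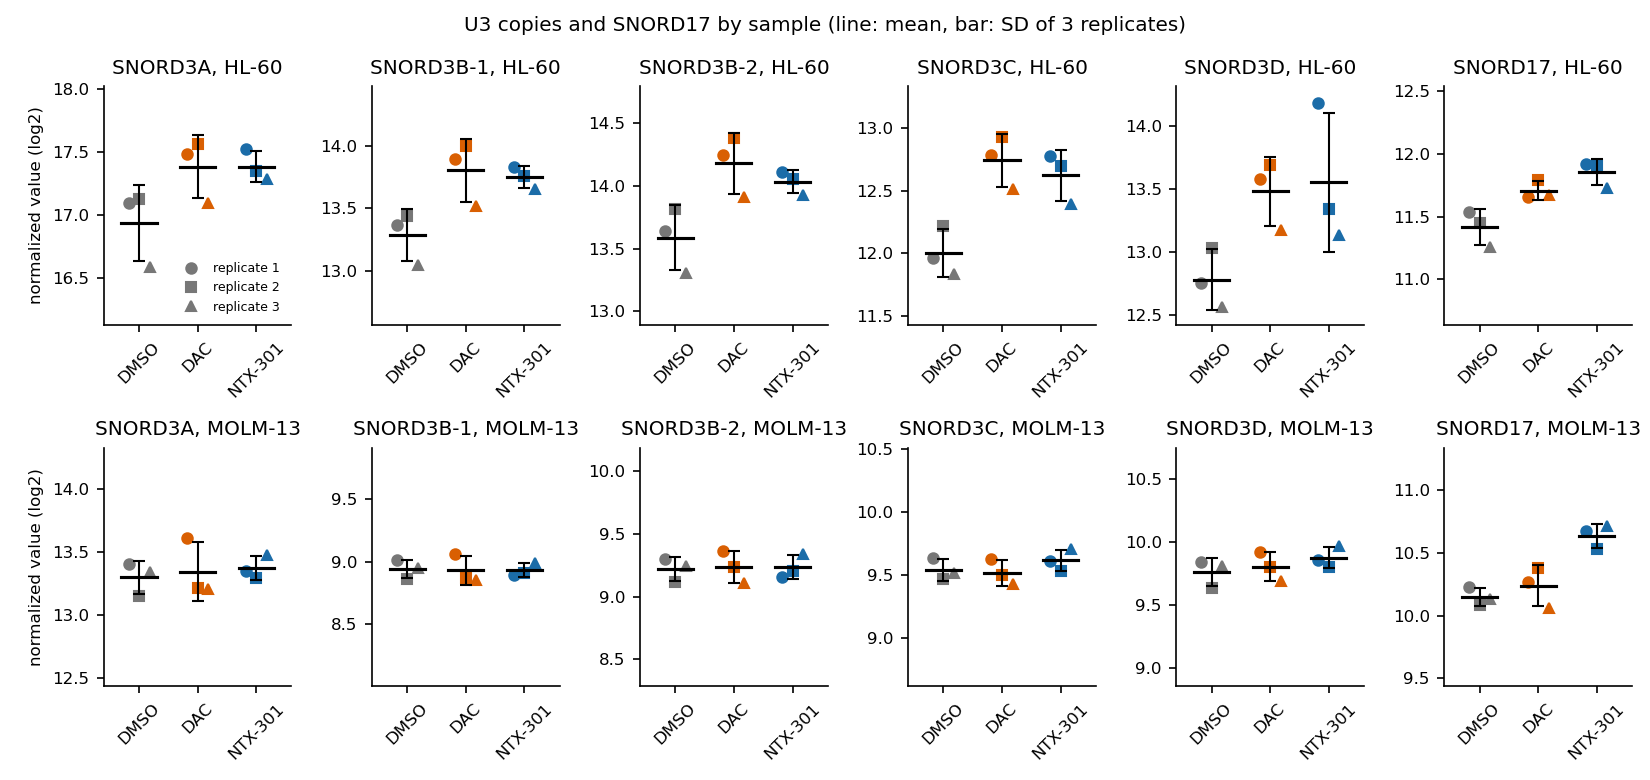
Deposited log2 value of the 5 U3 genes and SNORD17 in each sample of HL-60 (top row) and MOLM-13 (bottom row), by treatment. A line marks the mean of 3 replicates and a bar 1 SD. In HL-60 the U3 genes are higher with both drugs and the third replicate is the lowest in each group, while in MOLM-13 the groups overlap for U3 and SNORD17 is higher with NTX-301.

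The U3 genes were not independent measurements. They are 217 nt each and nearly identical. Counted from 1 at the 5′ end, SNORD3B-1 and SNORD3B-2 differ from SNORD3A by A78C alone and are identical to each other, SNORD3C differs by G108A, and SNORD3D by A4G, C53T and A78C. Reads shared between copies can be split by the counting step, so the copies are better read together. The log2 of their summed linear values was 17.41, 17.47 and 16.95 with DMSO in HL-60, 17.86, 17.95 and 17.48 with DAC, and 17.91, 17.71 and 17.63 with NTX-301. The mean differences from DMSO were 0.48 with DAC and 0.47 with NTX-301, with an exact two-sided permutation p of 0.1 for each, the smallest that 3 against 3 samples allow. In MOLM-13 the summed differences were 0.04 (exact permutation p = 0.8) and 0.07 (exact permutation p = 0.5).

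The HL-60 rise of SNORD3A and SNORD3D leaned on single libraries, whereas the calls of SNORD3B-1, SNORD3B-2 and SNORD3C against DMSO held in every alternative fit. In HL-60 replicate 3 was the lowest of its group for every U3 gene in all 3 groups. Without DMSO replicate 3, the SNORD3A change with DAC was 0.27 (adjusted p = 0.0946), that with NTX-301 was also 0.27 (adjusted p = 0.0661), and SNORD3D with DAC was 0.59 (adjusted p = 0.107). The DAC call of SNORD3A was also lost without DAC replicate 1 (adjusted p = 0.0826) or 2 (adjusted p = 0.0968), and its NTX-301 call without NTX-301 replicate 1 (0.38, adjusted p = 0.0577). That of SNORD3D with DAC was also lost without DMSO replicate 1 (adjusted p = 0.0636) and without DAC replicate 1 (0.0781) or 2 (0.0963), and with NTX-301 it reached an adjusted p of 0.05 without DMSO replicate 3 and was 0.46 without NTX-301 replicate 1 (adjusted p = 0.0205). Without the mean-variance trend these 4 calls had adjusted p between 0.0567 and 0.102, and SNORD3D with DAC had 0.0582 after quantile normalization. Of 8 other short RNAs, chosen after their values were seen, 4 rose with both drugs in HL-60. The H/ACA box RNA SNORA73B rose by 0.30 with DAC and 0.28 with NTX-301, SNORA63 by 0.45 and 0.35, SNORA68 by 0.38 and 0.22, and the spliceosomal RNU4-2 by 0.27 and 0.26. The third HL-60 replicate was also the lowest of each group for the 3 H/ACA RNAs. The other 4 did not rise with DAC. RN7SK fell by 0.22 and RMRP by 0.11 (adjusted p = 0.000168 and 0.00443), and RPPH1 (-0.05) and RN7SL1 (-0.04) were not called. With NTX-301, RMRP rose by 0.16, RPPH1 by 0.15 and RN7SL1 by 0.06, and RN7SK (0.03) was not called. How far recovery of short RNA takes part in the U3 result was not tested.

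SNORD17 was the member that rose in both lines. It lies in SNX5, a sorting nexin gene, is 237 nt long and is the longest member. Its HL-60 values were 11.54, 11.45 and 11.26 with DMSO, 11.66, 11.79 and 11.67 with DAC, and 11.92, 11.91 and 11.73 with NTX-301. Its MOLM-13 values were 10.23, 10.09 and 10.13 with DMSO, 10.27, 10.38 and 10.06 with DAC, and 10.67, 10.53 and 10.71 with NTX-301. NTX-301 samples lay above DMSO samples in both lines, and DAC samples did so in HL-60 alone. In limma SNORD17 rose by 0.29 with DAC (SE 0.064, adjusted p = 0.00459) and by 0.44 with NTX-301 (adjusted p = 8.85e-05) in HL-60, and by 0.49 with NTX-301 in MOLM-13 (SE 0.074, adjusted p = 0.000243). With DAC in MOLM-13 the change was 0.09 and was not called, and NTX-301 exceeded DAC there by 0.40 (adjusted p = 0.00955). These calls held in every alternative fit. The host transcript went the same way in HL-60 and the other way in MOLM-13. SNX5 rose by 0.09 (adjusted p = 0.00801) and 0.13 (adjusted p = 0.000322) in HL-60 with DAC and NTX-301, and fell by 0.12 (adjusted p = 0.00125) and 0.11 (adjusted p = 0.00246) in MOLM-13. After quantile normalization the MOLM-13 changes of SNX5 with DAC and NTX-301 were -0.03 and 0.007 (adjusted p = 0.249 and 0.78), so that its fall there depends on the scaling.

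Few members outside U3 and SNORD17 changed, and the share of members called lay below that of all genes in each comparison. Members also lay lower than all genes, whose median log2 level was 9.54 in HL-60 and 9.82 in MOLM-13. Genes at low levels were called less often, so these shares are not matched for level. In HL-60, DAC changed 15 of 202 members (7.43%), 13 higher and 2 lower, where 24.2% of all 17046 genes changed, 11.6% higher and 12.6% lower. There NTX-301 changed 17 members (8.42%), 11 higher and 6 lower, where 37.4% of all genes changed, 18.3% higher and 19.2% lower. DAC changed 7 of 214 members in MOLM-13 (3.27%), 1 higher and 6 lower, where 36.6% of all 17475 genes changed, 15.4% higher and 21.2% lower. NTX-301 changed 32 MOLM-13 members (14.95%), 13 higher and 19 lower, where 45.1% of all genes changed, 20.3% higher and 24.8% lower. The median log2 change of members was 0.011, 0.00075, -0.0034 and 0.00075 in these 4 comparisons, beside 0.00064, 0.00082, 0.0013 and 0.0034 for all genes tested. The members tested in MOLM-13 include the 11 at the floor, whereas those in HL-60 do not. The MOLM-13 median with NTX-301 equals the change of these floor members. The split by direction depended on the scaling. After quantile normalization DAC raised 8 and lowered 6 members in HL-60 and raised 0 and lowered 39 in MOLM-13, and NTX-301 raised 9 and lowered 30, and raised 2 and lowered 57. With each sample centred on its median, DAC raised 14 and lowered 2, and raised 0 and lowered 59, and NTX-301 raised 7 and lowered 60, and raised 1 and lowered 57, in the same order of lines. The directions of weakly changed members are therefore not settled by these values.

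**Figure D2:**
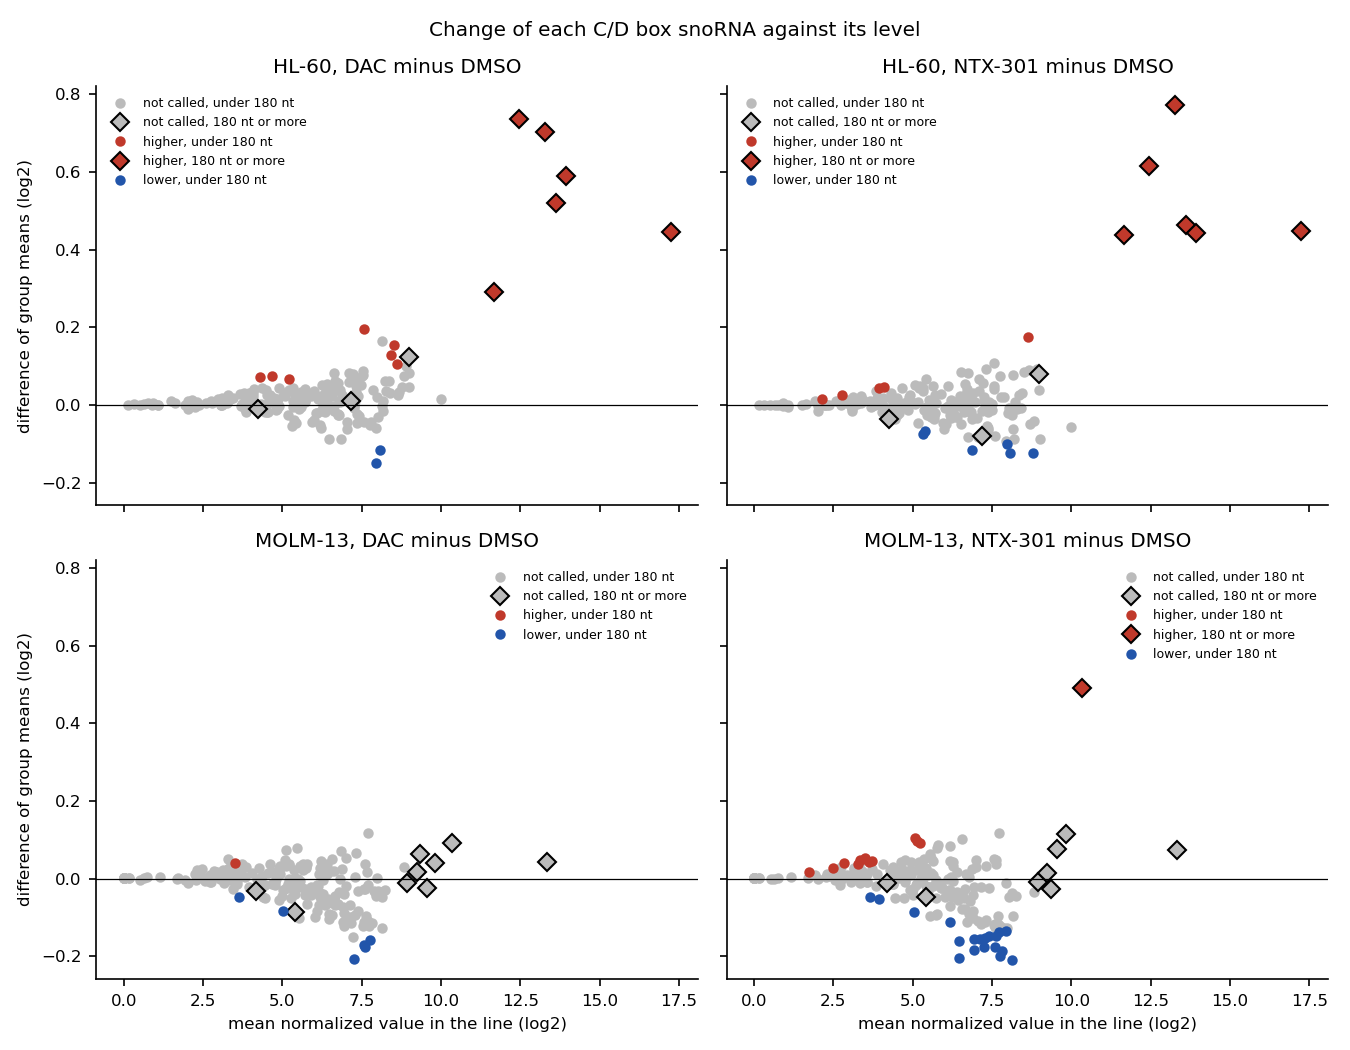
Log2 change against mean log2 level of each tested member, 1 panel for each drug against DMSO in each line, with called members in colour and members of 180 nt or more as diamonds. In HL-60 the largest rises belong to the long, abundant members, and changes shrink towards 0 at low levels.

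The calls were spread unevenly over levels and lengths. Among members with a mean log2 level of 9 or more in HL-60, 6 of 8 were called with DAC (75%, beside 34.6% of all genes at that level) and 6 of 8 with NTX-301 (beside 51.2%), all higher. These were SNORD17 and the 5 U3 genes, which are nearly identical copies and not independent measurements. The 75% is therefore not a share of separate RNAs. Between 7 and 9, 6 of 50 HL-60 members were called with DAC (12% beside 23.0%) and 4 of 50 with NTX-301 (8.0% beside 35.5%). In MOLM-13 the same band held 38 members, of which NTX-301 lowered 11 and raised 0 (28.95% beside 41.1%). At low levels the shares were closer. With NTX-301, 7.69% of members under 3 were called in HL-60 (beside 4.44%) and 8.11% in MOLM-13 (beside 5.70%). From 3 to 5 it called 4.0% in HL-60 (beside 11.9%) and 15.69% in MOLM-13 (beside 12.7%). With DAC no member under 3 was called in either line (beside 3.68% and 3.33%). By length, 6 of the 9 members of 180 nt or more were higher with each drug in HL-60, again the U3 copies and SNORD17. In MOLM-13, 0 of 9 were higher with DAC and 1 of 9 with NTX-301. SNORD133, a member of 216 nt in LARP4 that is neither U3 nor SNORD17, was not called in any within-line comparison.

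**Figure D3:**
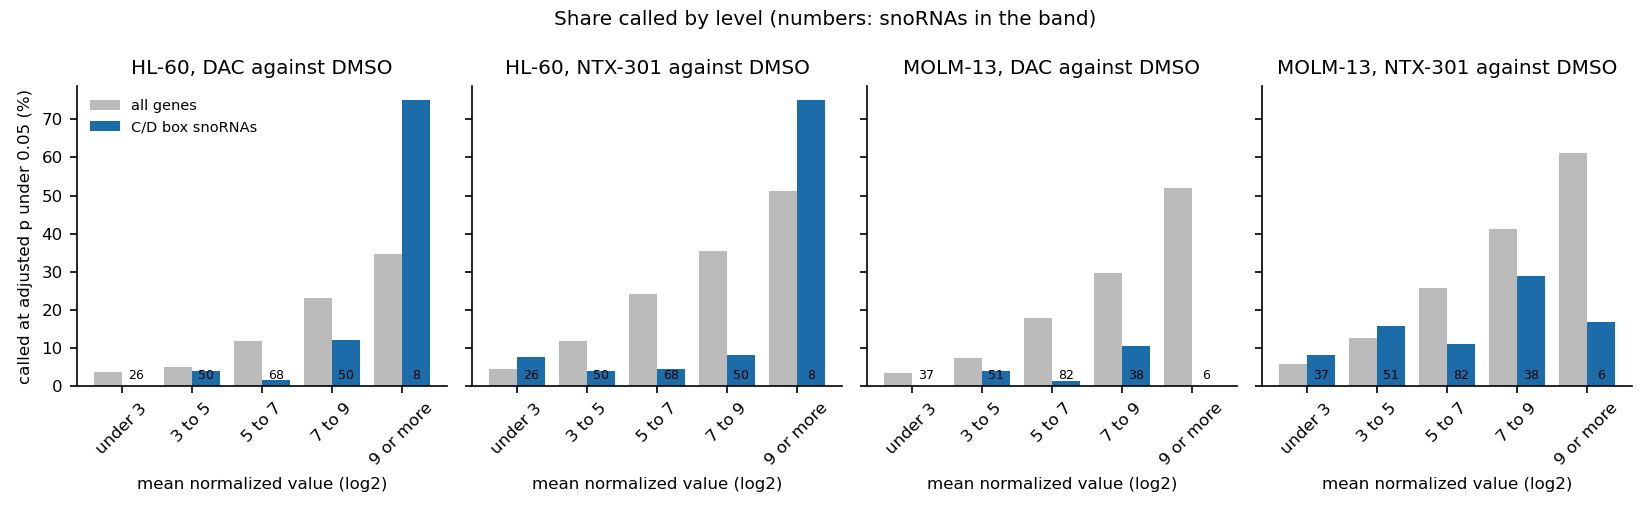
Percent of tested genes called at an adjusted p under 0.05 in bands of mean log2 level, for members and for all genes, 1 panel for each drug against DMSO in each line. In HL-60 the share of members called is 75% with each drug at a level of 9 or more, above that of all genes. That band holds 8 members, 5 of them nearly identical U3 copies, which are not independent. In the bands from 3 to 9 the HL-60 share lies below that of all genes. With NTX-301 the share of members lies above that of all genes under 3 in both lines and from 3 to 5 in MOLM-13.

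Members in SNHG1 fell in MOLM-13 with NTX-301. SNHG1 is a long noncoding RNA gene whose introns hold 8 members, among them the guides SNORD25 to SNORD31 and U22. For SNORD26, the MOLM-13 values were 7.78, 7.73 and 7.64 with DMSO, 7.61, 7.60 and 7.66 with DAC, and 7.54, 7.63 and 7.54 with NTX-301. Its HL-60 values were 8.45, 8.42 and 8.42 with DMSO, 8.60, 8.55 and 8.60 with DAC, and 8.56, 8.51 and 8.48 with NTX-301. The treated samples were thus the higher ones in HL-60 and in MOLM-13 the NTX-301 samples lay below the DMSO samples. NTX-301 lowered 5 of 8 members in MOLM-13, SNORD26 by 0.15 (adjusted p = 0.049), SNORD27 by 0.18 (0.0428), SNORD28 by 0.18 (0.0243), SNORD29 by 0.17 (0.0349) and SNORD30 by 0.16 (0.0353). DAC lowered only SNORD29 there, by 0.17 (adjusted p = 0.0452). Among all MOLM-13 genes, NTX-301 lowered 24.8% and DAC 21.2%. In HL-60, DAC raised SNORD26 by 0.15 (adjusted p = 0.00688) and SNORD29 by 0.13 (adjusted p = 0.0205), and NTX-301 changed 0 of 7 tested. Among all HL-60 genes, DAC raised 11.6% and NTX-301 changed 37.4%. The difference between the lines was itself called. The MOLM-13 effect less the HL-60 effect was below 0 and called for 4 of 7 SNHG1 members with DAC and 6 of 7 with NTX-301, where it was for 17.9% and 22.4% of all genes. For SNORD26 it was -0.25 (adjusted p = 0.00443) and -0.23 (adjusted p = 0.0056), and both were called in every alternative fit. Of the 6 SNHG1 members called between lines with NTX-301, SNORD22 (-0.19) lost its call in 12 of 18 fits that each left out a sample, with an adjusted p of up to 0.124 without MOLM-13 DMSO replicate 1, and SNORD29 (-0.21) without MOLM-13 DMSO replicate 2 (0.0673) or NTX-301 replicate 3 (0.0594).

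The SNHG1 transcript itself fell in all 4 comparisons, by 0.16 (adjusted p = 4.06e-05) and 0.22 (7.51e-07) with DAC and NTX-301 in HL-60 and by 0.30 (6.52e-05) and 0.30 (4.2e-05) in MOLM-13. So SNORD26 and SNORD29 rose in HL-60 with DAC while their host fell. The MOLM-13 calls in SNHG1 were near the threshold. With MOLM-13 DMSO replicate 1 left out, the NTX-301 changes of the 5 members were between -0.17 and -0.11 with adjusted p between 0.081 and 0.162, and none was called. Leaving out DMSO replicate 2, NTX-301 replicate 1 or NTX-301 replicate 3 also ended all 5 calls, and SNORD29 with DAC kept its call in 1 of 9 such fits.

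GAS5, a growth-arrest associated noncoding RNA gene, holds 10 members, whose directions differed by comparison. With DAC all 10 changes were above 0 in HL-60 (median 0.04), and in MOLM-13 4 were above 0 and 6 below. With NTX-301, 3 were above 0 and 7 below in HL-60, and 2 above and 8 below in MOLM-13. Among all genes, 50.7% and 51.6% were above 0 with DAC in HL-60 and MOLM-13, and 50.6% and 52.6% with NTX-301. Among all members these shares were 69.8%, 45.8%, 51.5% and 50.5%. SNORD47 had MOLM-13 values of 8.24, 8.26 and 8.21 with DMSO, 8.15, 8.04 and 8.15 with DAC, and 7.98, 8.07 and 8.03 with NTX-301. NTX-301 lowered it by 0.21 in MOLM-13 (SE 0.0528, adjusted p = 0.0068) and by 0.12 in HL-60 (adjusted p = 0.0481), where the groups overlapped, and leaving out any of 6 HL-60 samples ended that call (adjusted p up to 0.162). SNORD74 went the other way in HL-60, with 8.53, 8.56 and 8.49 with DMSO, 8.62, 8.65 and 8.63 with DAC, and 8.70, 8.74 and 8.67 with NTX-301. The 3 groups of SNORD74 did not overlap. NTX-301 raised it by 0.18 (SE 0.0363, adjusted p = 0.00153) and DAC by 0.11 (adjusted p = 0.0464, lost in 8 of 9 fits that each left out a sample, up to 0.146 without DMSO replicate 3). SNORD44 fell by 0.15 with NTX-301 in MOLM-13 (adjusted p = 0.0475). In all, DAC called 1 of 10 GAS5 members in HL-60 and 0 of 10 in MOLM-13, and NTX-301 called 2 of 10 in each line. These shares lay below those of all genes, which were 24.2% and 36.6% with DAC and 37.4% and 45.1% with NTX-301. GAS5 itself fell by 0.10 with DAC in HL-60 (adjusted p = 0.00663) and rose by 0.17 (adjusted p = 0.00144) and 0.13 (adjusted p = 0.00523) in MOLM-13, where SNORD47 fell with NTX-301. Its rise of 0.06 with NTX-301 in HL-60 (adjusted p = 0.0483) became 0.03 after median centring (adjusted p = 0.29) and was lost in 5 of 9 fits that each left out a sample.

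U14, which pairs with 18S ribosomal RNA and is needed for its processing, is encoded by SNORD14C, SNORD14D and SNORD14E in HSPA8, a heat shock cognate chaperone gene, and by SNORD14A and SNORD14B in RPS13. The MOLM-13 values of SNORD14C were 6.59, 6.60 and 6.49 with DMSO, 6.43, 6.50 and 6.45 with DAC, and 6.37, 6.36 and 6.34 with NTX-301. In HL-60 they were 6.68, 6.72 and 6.67, 6.73, 6.68 and 6.78, and 6.76, 6.74 and 6.69 in the same order. The NTX-301 samples were the lowest in MOLM-13, while the HL-60 groups overlapped. NTX-301 lowered SNORD14C by 0.20 (SE 0.046, adjusted p = 0.00346) and SNORD14D by 0.16 (adjusted p = 0.0283) in MOLM-13, and DAC lowered SNORD14B by 0.18 (adjusted p = 0.0177). The SNORD14D call was lost without DMSO replicate 2 (adjusted p = 0.124) or NTX-301 replicate 3 (0.11), and that of SNORD14B without DMSO replicate 2 (0.0655) or DAC replicate 3 (0.0654). The NTX-301 effect was lower in MOLM-13 for all 3 HSPA8 members, with differences between the lines of -0.24 for SNORD14C (adjusted p = 0.00133), -0.25 for SNORD14D (0.00275) and -0.09 for SNORD14E (0.0233). The last was lost without HL-60 DMSO replicate 2 (0.0513) or MOLM-13 DMSO replicate 3 (0.0691) and after median centring (0.0504). In this contrast 22.4% of all genes were called lower in MOLM-13. HSPA8 fell in both lines. DAC lowered it by 0.21 and 0.28 in HL-60 and MOLM-13, and NTX-301 by 0.16 and 0.41 (adjusted p = 3.75e-06 for the last). The other processing RNAs SNORD13, SNORD118 and SNORD22 were not called in any within-line comparison.

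Members elsewhere changed one by one. SNORD96A, in the ribosomal scaffold gene RACK1, was lower with DAC in both lines. Its HL-60 values were 8.05, 8.04 and 8.04 with DMSO, 7.87, 7.90 and 7.92 with DAC, and 7.93, 7.97 and 7.92 with NTX-301. In MOLM-13 they were 7.43, 7.40 and 7.31 with DMSO, 7.23, 7.10 and 7.19 with DAC, and 7.29, 7.22 and 7.28 with NTX-301. No treated sample reached a DMSO sample in either line. DAC lowered SNORD96A by 0.15 in HL-60 (SE 0.035, adjusted p = 0.00711) and by 0.21 in MOLM-13 (SE 0.0549, adjusted p = 0.0116), and both calls held in every alternative fit. NTX-301 lowered it by 0.10 in HL-60 (adjusted p = 0.0347, lost in 5 of 9 such fits, up to 0.101 without NTX-301 replicate 3), and its change of -0.11 in MOLM-13 was not called. RACK1 was not called in any comparison. SNORD65, in SNHG29, had MOLM-13 values of 7.89, 7.90 and 7.83 with DMSO, 7.74, 7.71 and 7.69 with DAC, and 7.72, 7.66 and 7.65 with NTX-301. DAC lowered it by 0.16 (adjusted p = 0.0251, lost in 4 of 9 such fits, up to 0.0837 without DMSO replicate 2) and NTX-301 by 0.20 (adjusted p = 0.00645), and SNHG29 was not called in MOLM-13. Single changes called in 1 line alone were also small. SNORD97 rose by 0.19 with DAC in HL-60 (adjusted p = 0.0114, but 0.0564 without DAC replicate 2), SNORD36A fell by 0.12 with each drug there (0.0312 and 0.0141), and SNORD35B fell by 0.19 with NTX-301 in MOLM-13 (0.00962). Without NTX-301 replicate 2 the HL-60 fall of SNORD36A with NTX-301 had an adjusted p of 0.0536, and with DAC its call was lost in 4 of 9 such fits (up to 0.112 without DAC replicate 2). In MOLM-13, NTX-301 also raised SNORD98 by 0.10, SNORD13E by 0.10 and SNORD59A by 0.09, and DAC raised SNORD9 by 0.04. Leaving out a sample ended these calls in 7, 1, 7 and 3 of 9 fits, in that order.

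Ribosomal protein genes are the most frequent hosts, with 41 members in their introns, of which 39 were tested in HL-60 and all 41 in MOLM-13. DAC and NTX-301 each lowered 1 and raised 0 of these in HL-60, and in MOLM-13 they lowered 1 and 5 and raised 0. Of all genes, DAC lowered 12.6% and NTX-301 19.2% in the former line, and 21.2% and 24.8% in the latter. Across all hosts, most members were not called, whether the host transcript was called or not. A host was found for 212 of 221 members, in 101 genes, of which 99 were tested in each line. With DAC, 44 hosts fell and 11 rose in HL-60, and 46 fell and 12 rose in MOLM-13. With NTX-301, 35 fell and 14 rose in HL-60, and 52 fell and 13 rose in MOLM-13. Of the 102 tested members whose host fell with DAC in HL-60, 98 were not called, 3 rose and 1 fell. The same counts were 71 not called, 0 risen and 3 fallen of 74 with NTX-301 in HL-60, 79, 0 and 2 of 81 with DAC in MOLM-13, and 79, 4 and 11 of 94 with NTX-301 in MOLM-13. Among members whose host was not called, 61 of 63, 89 of 94, 60 of 65 and 49 of 59 were not called, in the same order of comparisons. Where the host rose, 26 of 28, 21 of 25, 57 of 57 and 43 of 50 were not called. The deposited tables give 1 value per gene and none for introns, so reads of the host intron that cover a member are part of its value and were not separated.

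**Figure D4:**
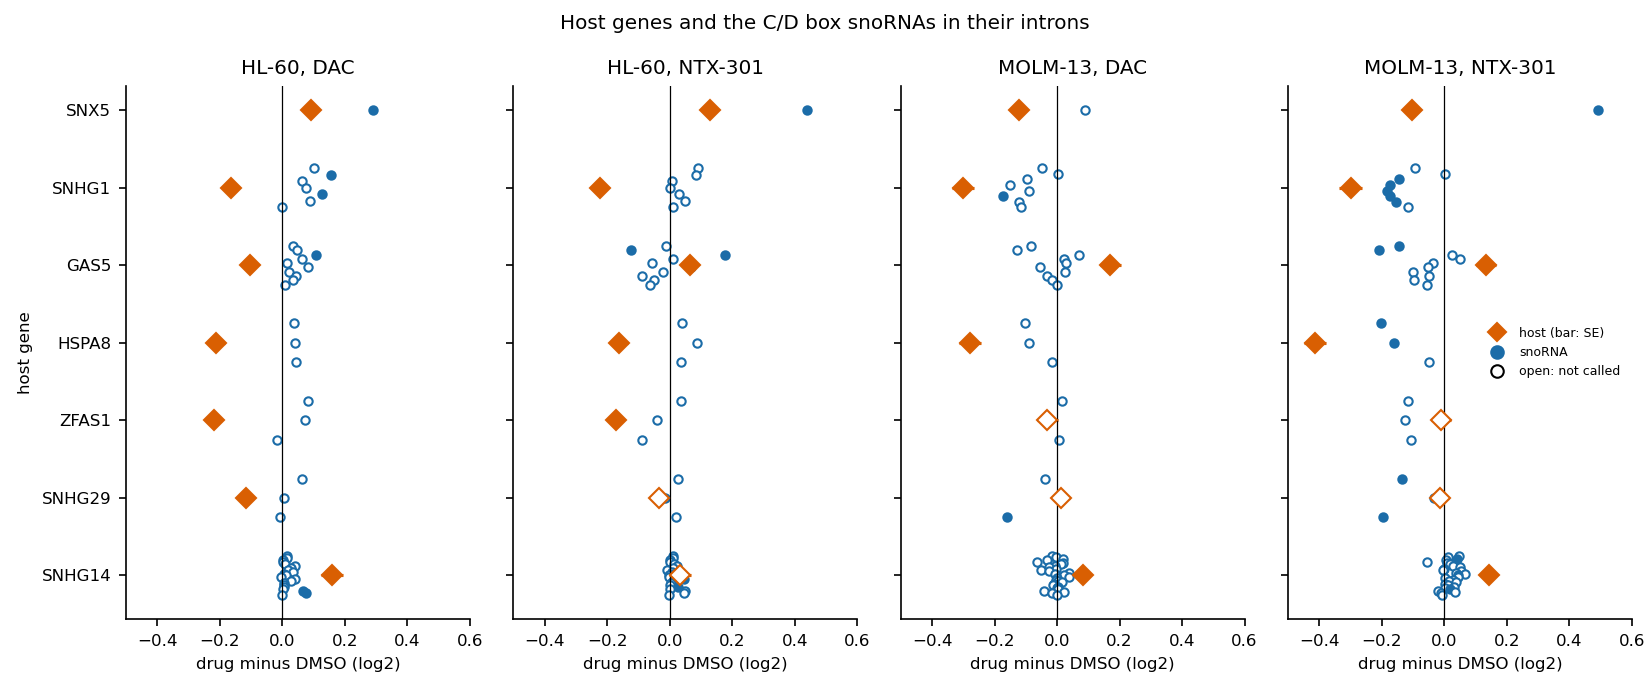
Log2 change of 7 host transcripts and of the members in their introns, 1 panel for each drug against DMSO in each line, with called genes filled. With NTX-301 in MOLM-13 the called members of SNHG1 and HSPA8 lie below 0, as do both hosts, while in HL-60 both hosts are lower and their members lie near 0 or above.

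The imprinted repeats split into listed and unlisted sets. Of the RefSeq genes, 0 of 48 SNORD115, 0 of 9 SNORD113, 0 of 31 SNORD114 and 0 of 1 SNORD112 were listed in either line. Of 30 SNORD116 genes, 23 were listed in HL-60 and 29 in MOLM-13, of which 21 and 28 lay above the floor. SNORD109A, beside the SNORD116 repeat, had mean levels of 3.35 and 5.58. A gene without a value in some sample may have been left out of the tables, so absence from them is not shown to mean absence of the RNA. The SNORD116 copies were low and unequal. Per 100 nt, the median log2 level of copies 1 to 9, 10 to 24 and 25 to 30 was 2.92, 3.21 and 2.98 in HL-60. In MOLM-13 it was 4.72, 5.11 and 3.56. The highest were SNORD116-18 in HL-60 (5.80) and SNORD116-21 in MOLM-13 (7.71), and SNORD116-6 led the first group in both (5.25 and 6.96).

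**Figure D5:**
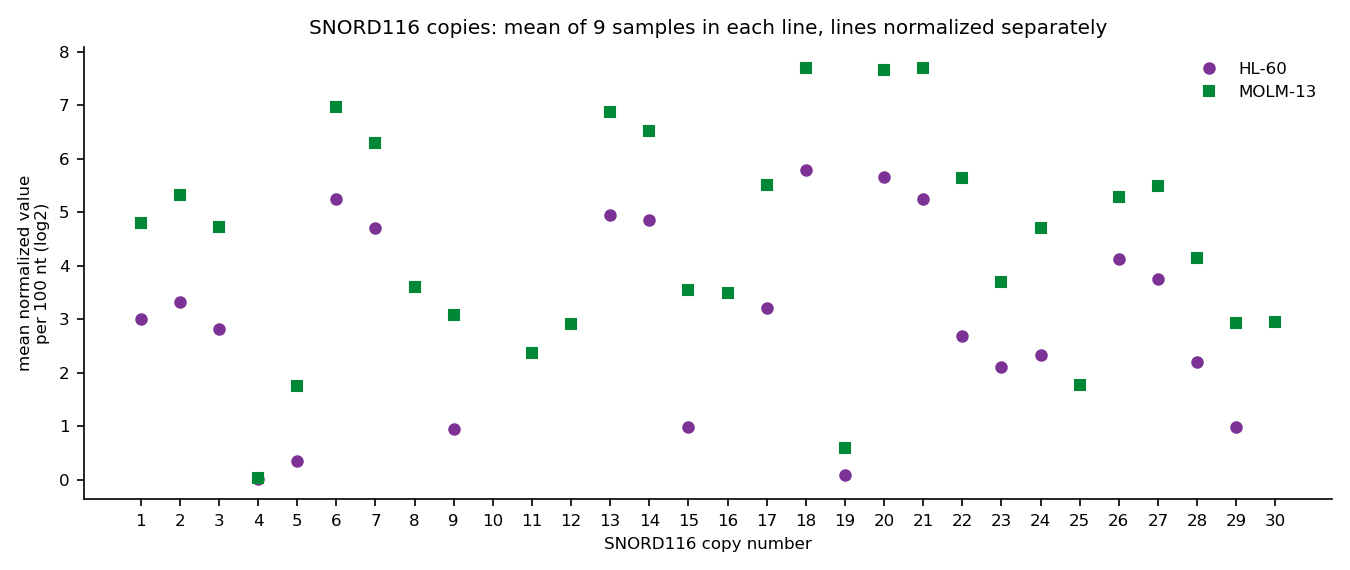
Mean log2 level per 100 nt of each listed SNORD116 copy by copy number in HL-60 and MOLM-13. The spread over the samples is not drawn. Levels differ between neighbouring copies by several log2 units, and the highest copies are SNORD116-18 in HL-60 and SNORD116-21 in MOLM-13.

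Copies of SNORD116 with the same sequence had different values. Among the 29 with a sequence there were 26 distinct ones, of 83 to 96 nt. SNORD116-18 is shown beside the identical pair SNORD116-5 and SNORD116-7 because the pair marks what the values can resolve. Capitals mark the C and D boxes as above.
SNORD116-18: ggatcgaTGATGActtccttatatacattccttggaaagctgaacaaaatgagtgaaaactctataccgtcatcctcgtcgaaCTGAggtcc
SNORD116-5: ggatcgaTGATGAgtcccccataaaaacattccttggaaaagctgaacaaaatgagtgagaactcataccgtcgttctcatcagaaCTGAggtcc
SNORD116-7: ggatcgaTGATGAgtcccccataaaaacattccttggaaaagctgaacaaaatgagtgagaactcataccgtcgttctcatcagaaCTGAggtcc
SNORD116-5 had a mean level of 0.31 and SNORD116-7 of 4.66 in HL-60. In MOLM-13 the same pair was at 1.72 and 6.26. SNORD116-17 and SNORD116-19, also identical, were at 3.12 and the floor in HL-60, and in MOLM-13 at 5.43 and 0.52. The same held for SNORD116-3 (2.77 and 4.67) and SNORD116-9 (0.90 and 3.04). Outside the repeat, SNORD62A was at 3.84 and SNORD62B at 3.09 in HL-60, and in MOLM-13 they were at 2.75 and 2.02. Reads that lie within such copies cannot be told apart by sequence, so these values depend on how reads were placed or on flanking bases, and the levels of single copies are uncertain.

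Few SNORD116 copies changed, and by little. SNORD116-18 had values of 5.67, 5.70 and 5.68 with DMSO, 5.70, 5.74 and 5.73 with DAC, and 5.74, 5.69 and 5.70 with NTX-301 in HL-60. In MOLM-13 they were 7.66, 7.59 and 7.56, 7.52, 7.62 and 7.58, and 7.62, 7.65 and 7.67 in the same order. The groups overlapped in both lines. In HL-60, DAC raised 2 of 21 tested copies (SNORD116-6 by 0.07 and SNORD116-7 by 0.08) and NTX-301 raised 2 (SNORD116-26 by 0.05 and SNORD116-3 by 0.03). In MOLM-13, DAC called 0 of 29 and NTX-301 raised 3 (SNORD116-12 and SNORD116-23 by 0.04 each, and SNORD116-5, at a mean level of 1.72, by 0.02). Of all HL-60 genes tested, 11.6% were higher with DAC and 18.3% with NTX-301. The MOLM-13 shares were 15.4% and 20.3%. How these calls of single copies fare when a sample is left out is not given here. The host SNHG14 rose by 0.16 with DAC in HL-60 (adjusted p = 0.00424) and by 0.14 with NTX-301 in MOLM-13 (adjusted p = 0.00105). Its rise of 0.08 with DAC in MOLM-13 (adjusted p = 0.0311) became 0.05 after median centring (adjusted p = 0.219), and leaving out any of 4 samples ended that call too (up to 0.143 without DMSO replicate 3).

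Genes for the proteins of C/D box particles were mostly lower where called. Of 41 genes for core proteins, assembly, U3 and U8 factors and RNA ends, DAC lowered 15 and raised 2 in HL-60 and lowered 33 and raised 1 in MOLM-13, and NTX-301 lowered 17 and raised 1, and lowered 35 and raised 0. Of all genes, DAC lowered 12.6% and raised 11.6% in HL-60 and lowered 21.2% and raised 15.4% in MOLM-13, and NTX-301 lowered 19.2% and raised 18.3%, and lowered 24.8% and raised 20.3%. The RNA of NOP58, a core protein, fell with DAC and NTX-301 by 0.15 and 0.17 in HL-60, and in MOLM-13 by 0.22 and 0.25. SNU13, which binds the box motif first, fell by 0.11, 0.10, 0.20 and 0.30 in the same order, of which the HL-60 value with NTX-301 had an adjusted p of 0.0666 after quantile normalization. NOP56, the partner of NOP58, fell by 0.08 with DAC in HL-60 and by 0.30 and 0.33 in MOLM-13. RRP9, which binds U3 alone, was not called with DAC in HL-60 and fell by 0.19 with NTX-301 there and by 0.31 and 0.44 in MOLM-13 (adjusted p = 6.18e-06 for the last). FBL, the methyltransferase, rose by 0.10 with DAC in HL-60 (adjusted p = 0.00283). Its falls of 0.09 and 0.17 in MOLM-13 (adjusted p = 0.0211 and 0.000377) became -0.01 (0.918) and -0.07 (0.0821) after quantile normalization, and that with DAC was lost without DMSO replicate 1 (0.0727) or DAC replicate 3 (0.0775).

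The 2 drugs differed in few members. In HL-60, NTX-301 against DAC called 7 of 202 (3.47%), 2 higher and 5 lower, where 30.4% of all genes were called, 15.4% higher and 15% lower. SNORD47 was lower with NTX-301 by 0.17 (adjusted p = 0.0121), SNORD79 by 0.13 (0.00807), SNORD12B by 0.11 (0.03) and SNORD48 by 0.10 (0.0499), and SNORD46 was higher by 0.13 (0.0205). The SNORD47 call was lost without DAC replicate 2 (0.0623) or NTX-301 replicate 1 (0.052), and those of SNORD12B, SNORD46 and SNORD48 in 5, 4 and 9 of 9 fits that each left out a sample. Centring each sample on its median gave 79 calls (39.1%), all lower, and quantile normalization 14 (6.93%), 1 higher and 13 lower. Among all genes, centring called 44.1%, 1746 higher and 5770 lower, and quantile normalization 29.9%, 2618 higher and 2485 lower. In MOLM-13 only SNORD17 was called, 1 of 214 (0.467%), where 7.42% of all genes were called, 3.01% higher and 4.41% lower. For the U3 genes the change with NTX-301 minus that with DAC lay within 2 SE of 0 in HL-60.

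Between the lines, the DAC effect differed for 14 of 195 members tested in both (7.18%), where it did for 30% of all genes, 12.1% higher and 17.9% lower in MOLM-13. The NTX-301 effect differed for 26 (13.3%), where it did for 40% of all genes, 17.6% higher and 22.4% lower. The effect in MOLM-13 was the lower one for 13 of the 14 members with DAC and 21 of the 26 with NTX-301. Dose, line and separate normalization cannot be told apart in this contrast. The largest differences were in U3. The DAC effect on SNORD3C was lower in MOLM-13 by -0.76 (SE 0.148, adjusted p = 0.000659), and those on SNORD3B-2 and SNORD3B-1 by -0.57 (0.00935) and -0.53 (0.00756). The corresponding NTX-301 differences were -0.54 (0.00688), -0.43 (0.0364) and -0.47 (0.012), of which that of SNORD3B-2 was lost in 7 fits that each left out a sample, with an adjusted p of up to 0.119 without HL-60 DMSO replicate 3. SNORD3A and SNORD3D were not called in either contrast. SNORD13E, of the U13 family by its name, had the highest called difference. It was 0.12 for the NTX-301 effect (adjusted p = 0.00312) and 0.09 for the DAC effect (adjusted p = 0.0209, but 0.226 after median centring, and lost in 3 of 18 fits that each left out a sample). With each drug, 2 members were called in both lines. DAC called SNORD96A in both, lower each time, and SNORD29 in opposite directions, 2 of 15 HL-60 calls and 2 of 7 MOLM-13 calls. NTX-301 called SNORD17, higher, and SNORD47, lower, 2 of 17 and 2 of 32. The share of all genes called in both lines is not given here, so the size of this overlap is not read as a trait of members.

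H/ACA box RNAs, the class of small nucleolar RNA that guides pseudouridylation, gave 24 calls of 131 with DAC in HL-60 (18.3%, 22 higher and 2 lower). With NTX-301 they gave 19 there (14.5%, 18 higher and 1 lower). C/D box members gave 15 (7.43%) and 17 (8.42%) of 202. Of all genes, 24.2% and 37.4% were called in HL-60. In MOLM-13 H/ACA box RNAs gave 8 of 126 with DAC (6.35%, 3 higher and 5 lower) and 12 with NTX-301 (9.52%, 6 higher and 6 lower). C/D box members gave 7 (3.27%) and 32 (14.95%) of 214. Of all genes, 36.6% and 45.1% were called in MOLM-13. Which class changed more was not tested.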

How the data were processed

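Stranded total RNA libraries of 18 samples were sequenced, and the authors deposited 1 table per sample with a normalized expression value per gene on a log2 scale. The unit was read from the values, since neither headers nor labels name the normalization. Per the submitters' processing notes, FastQC, Trimmomatic 0.38, HISAT2, StringTie and the build hg19 were used. The use of strand, the treatment of reads with several matches and the annotation version were not given in the sources used here. No read depth is given, so precision rests on 3 replicates per group.

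Gene IDs, hosts and lengths came from RefSeq and sequences from GENCODE 29, both on GRCh38, so no coordinates are printed. All 221 members matched RefSeq. A host is the shortest gene other than a small RNA gene that holds the member on the same strand, where strand was known (checked for 159 members). The deposited log2 values of all genes of a line entered limma 3.58.1 (R 4.3.3; a mean per group, eBayes with trend, two-sided), with 6 residual degrees of freedom. Benjamini-Hochberg adjustment was over 17046 (HL-60) and 17475 (MOLM-13) genes, with a threshold of 0.05, after the filter given above. The lines were compared in 1 fit of all 18 samples, as differences of drug effects. The fits were tested on simulated data. Levels are ranked between members per 100 nt of length, while bands of level, the floor and copies of equal sequence use the unscaled log2 values.

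Named members are the 4 highest and 4 lowest called in each comparison within a line, the 2 highest and 2 lowest between lines, the most and least abundant, and the processing RNAs and imprinted repeats whatever their values. A selection is given, and other genes are named as host or list members or as chosen after their values were seen. Members and lists were chosen with earlier results of these data known. Alternatives were no filter, a mean log2 value of at least 5, no trend, only the groups compared, median centring, quantile normalization, a replicate block, a minimum log2 change of 0.25, members without exon overlap, and each sample left out.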

Additional observations from a re-analysis of the deposited data

Results flagged for a closer look

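A drug effect that differed between HL-60 and MOLM-13 in the limma fit of all 18 samples is listed here, as the MOLM-13 effect less the HL-60 effect on the log2 scale. Such a difference was called for 14 of 195 members with DAC (7.18%) and 26 with NTX-301 (13.3%). These shares lay below those of all genes, which were 30% and 40%. With DAC it was -0.76 for SNORD3C, -0.57 for SNORD3B-2, -0.53 for SNORD3B-1, -0.30 for SNORD29, -0.15 for SNORD65 and 0.092 for SNORD13E. With NTX-301 it was -0.54 for SNORD3C, -0.47 for SNORD3B-1 and -0.43 for SNORD3B-2. In the HSPA8 and SNHG1 introns it was -0.25 for SNORD14D, -0.24 for SNORD14C, -0.086 for SNORD14E, -0.21 for SNORD29 and -0.19 for SNORD22. It was -0.22 for SNORD65, 0.018 for SNORD116-5, 0.045 for SNORD116-23, 0.092 for SNORD143 and 0.12 for SNORD13E. Some of these calls did not hold when a sample was left out. With NTX-301, SNORD22 was lost in 12 of 18 such fits (adjusted p up to 0.124 without MOLM-13 DMSO replicate 1) and when only the groups compared were fitted (0.0709), SNORD3B-2 in 7, SNORD143 in 4 and after quantile normalization (0.042, adjusted p = 0.301), and SNORD14E and SNORD29 in 2 each. With DAC, SNORD65 was lost in 8 (up to 0.0883 without HL-60 DAC replicate 2) and SNORD13E in 3. For U3, the third HL-60 replicate was the lowest of each group and the copies share nearly all of their sequence, as given above.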

How the results depend on the processing

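Of 102 results on single genes, 62 kept direction and call in every fit that left out a sample, 66 in every other alternative and 57 in all. Counts of members called moved with the scaling. Median centring gave 67 (HL-60, NTX-301), 79 (HL-60, NTX-301 against DAC), 59 (MOLM-13, DAC), 58 (MOLM-13, NTX-301) and 52 (DAC effect between lines), and quantile normalization 39, 14, 39, 59 and 38 in the same order. With centring these were 33.2%, 39.1%, 27.6%, 27.1% and 26.7% of members, beside 48.8%, 44.1%, 44.0%, 48.6% and 38.1% of all genes. With quantile normalization they were 19.3%, 6.93%, 18.2%, 27.6% and 19.5%, beside 36.3%, 29.9%, 31.9%, 39.8% and 27.0%. Centring moves every gene of a sample by 1 amount. A minimum log2 change of 0.25 left 6 members with each drug in HL-60 and 0 for NTX-301 against DAC, and in MOLM-13 0 with DAC and 1 with NTX-301, with 5 (DAC) and 3 (NTX-301) between lines. Without the trend 27 members were called for NTX-301 in HL-60, 14 for NTX-301 against DAC there, 17 for DAC in MOLM-13 and 24 for DAC between lines. Fitting only the groups compared gave 4 for NTX-301 against DAC in HL-60, a mean of at least 5 gave 21 for NTX-301 in MOLM-13, and members without exon overlap gave 10 for NTX-301 in HL-60. The cause was not tested.

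With each sample left out in turn, the counts ran in HL-60 from 10 to 15 (DAC), 11 to 18 (NTX-301, lowest without DMSO replicate 2) and 2 to 7 (NTX-301 against DAC, 2 without DAC replicate 2 or NTX-301 replicate 1). In MOLM-13 they ran from 1 to 9 (DAC, 1 without DMSO replicate 2), 15 to 26 (NTX-301, 15 without DMSO replicate 2) and 1 to 2 (NTX-301 against DAC). Between lines they ran from 10 to 21 (DAC) and 15 to 29 (NTX-301, 15 without HL-60 NTX-301 replicate 1). Direction changed for SNORD116-3 (NTX-301 against DAC in HL-60, -0.014 after median centring) and SNX5 (NTX-301 in MOLM-13, 0.00696 after quantile normalization).

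Over genes whose log2 values averaged 5 or more, the replicate numbers were not taken to pair samples, since correlations were over 0.1 in only 1 of 9 pairs in each line, although 6 of 9 HL-60 and 1 of 9 MOLM-13 samples correlated best with their own number and the third HL-60 replicate was the lowest of each group for the U3 genes. With the replicate block, calls in HL-60 were 16, 17 and 7 (DAC, NTX-301, and NTX-301 against DAC). In MOLM-13 they were 6, 23 and 1, and 15 and 25 between lines. Read depth was unknown, so counting error could not be set apart.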
